A study of Mus musculus with 52 samples.

Results

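Apoe, Apoc1, Apoc2 and Apod, 4 genes for lipid-binding secreted proteins, were followed across mouse bone marrow stromal cultures given 1 of 5 chemicals. They were chosen by symbol, with earlier results of these arrays known, among them the higher level of Apoc2 after 1 day of LG268. That value is therefore given as a description without a test, and the p-values of the other comparisons are no independent evidence for the choice of genes. Each symbol was annotated alone to 1 probe set, a set of array probes summarised to 1 value, so that no choice between probe sets arose for these 4 of 22180 genes. A further probe set annotated to both Apoc4 and Apoc2 lay outside the choice.

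RNA came from primary marrow cultures of female C57BL/6J mice aged 8 weeks. Marrow of 2 to 4 animals was pooled for each culture series, and pools 12, 15, 19 and 20 each gave 1 array to each of 13 groups, 52 arrays in all. The naive group was harvested on day 7 of culture, before the medium was changed. The other 12 groups were switched on day 7 to a bone-inducing medium with insulin at 0.5 µg/ml and dexamethasone at 10 nM, and were harvested 1 or 4 days later. In it they received vehicle (DMSO, 0.1%), Rosi (rosiglitazone at 100 nM), LG268 (the compound LG100268, also at 100 nM), TBT (tributyltin at 80 nM), triphenyl phosphate (TPhP) or mono-2-ethylhexyl phthalate (MEHP); the doses of the last 2 are not given in the labels. Rosi is an agonist of the nuclear receptor PPAR gamma, LG268 one of its partner receptor RXR, and TBT an organotin that binds RXR. TPhP is a flame retardant, and MEHP a breakdown product of a phthalate plasticiser. The cultures are mixed marrow cells that adhered to plastic, not a sorted population, and nothing in the labels gives their purity.

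Apolipoproteins coat lipid particles and steer them between cells, lipases and receptors. Apolipoprotein E is the ligand by which remnant particles enter cells, is made by macrophages as well as liver, and takes up cholesterol exported by ABC transporters. Apolipoproteins C-I and C-II sit on the same particles, where C-I restrains lipase action and uptake and C-II is the cofactor that lipoprotein lipase needs. Apolipoprotein D is unrelated to these in sequence: it is a lipocalin, a small barrel-shaped carrier of arachidonic acid and other hydrophobic ligands. The liver X receptors (LXR), which pair with RXR, are known to drive the Apoe, Apoc1 and Apoc2 genes in macrophages. Apoc2, Apoc4, Apoc1 and Apoe follow each other in that order on mouse chromosome 7, between Clptm1 and Tomm40, whereas Apod lies on chromosome 16.

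RefSeq promoter windows were held for 3 of the 4 genes, in the assembly GRCm38.p6. They are shown because Apoc2, Apoe and Apod were all higher with LG268 and TBT on day 4. Apoc1 was higher with both as well, but no window was held for it. Each run gives the 250 bases before a transcription start, read 5′ to 3′ on the minus strand, with exact copies of AGGTCA, the hexamer that nuclear receptors bind, on either strand in capitals.
Apoc2, chr7:19677942-19678191: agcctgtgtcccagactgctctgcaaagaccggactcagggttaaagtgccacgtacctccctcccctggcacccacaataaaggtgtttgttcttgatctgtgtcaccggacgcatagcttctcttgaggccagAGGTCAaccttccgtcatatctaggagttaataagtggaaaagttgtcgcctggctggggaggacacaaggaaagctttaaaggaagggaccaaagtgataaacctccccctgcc
Apoe, first listed start, chr7:19699189-19699438: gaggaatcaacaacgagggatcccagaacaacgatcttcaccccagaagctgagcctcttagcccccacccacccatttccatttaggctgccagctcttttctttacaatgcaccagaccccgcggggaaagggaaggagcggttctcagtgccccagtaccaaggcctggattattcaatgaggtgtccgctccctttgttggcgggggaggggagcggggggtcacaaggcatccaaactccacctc
Apod, chr16:31314809-31315058: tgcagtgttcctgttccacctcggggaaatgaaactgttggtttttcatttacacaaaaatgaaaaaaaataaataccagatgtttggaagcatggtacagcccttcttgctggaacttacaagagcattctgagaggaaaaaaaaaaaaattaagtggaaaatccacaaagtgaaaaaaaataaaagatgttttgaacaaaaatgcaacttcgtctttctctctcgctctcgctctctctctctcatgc
The Apoc2 window was the only one of the 5 windows of these genes (Apoe has 3 listed starts) to hold this hexamer, 115 to 110 bases before the start. Of 32851 mouse promoter windows of the same length, 14% hold it. In Apoc2 it forms the 3′ part of AGGCCAGAGGTCA, which differs by 1 base from the DR1, the direct repeat of the hexamer with a 1-base spacer that PPAR and RXR bind. A DR1 with at most 1 mismatch was found in 0.484% of all windows, and an exact one in 0.0335%. None of the 5 windows held an exact DR4, the repeat with a 4-base spacer that LXR and RXR bind, or a near match with up to 3 mismatches; 0.0152% of all windows hold an exact one and 18.5% one with up to 3 mismatches. The first Apoe window held GGGTCACAAGGCA, with 3 mismatches to the DR1, 28 to 16 bases before the start, a looser match found in 21.3% of windows. The Apod window was poor in G and C (36.4%, against 52% in Apoc2 and 57.2% in Apoe). These are matches of letters in short windows and were not tested as binding sites.

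All values are log2 expression as deposited, and a difference of 1 log2 unit is a doubling. A probe set's level depends on its own probes, so levels are compared between groups and not between genes. The median of the table was 4.05, and genes above it on at least 4 of the 52 arrays were tested, 14911 in all. Each difference is given ± its standard error from limma's fit over all 52 arrays. The words rose and fell are kept for genes of which the limma p-value, adjusted by Benjamini-Hochberg over all genes tested, was under 0.05. Comparisons with vehicle of 1 day share the same 4 vehicle arrays. The share of all genes whose groups do not overlap is not given here, so statements on overlap only describe the arrays. Of 24 macrophage markers on the array 22 lay above the table median on all 52 arrays, as did 20 of 21 stromal progenitor markers, among them Cxcl12, Pdgfrb and Lepr; the cultures thus held macrophage as well as stromal transcripts.

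Apoe, Apoc1 and Apoc2 lay above the table median on all 52 arrays and Apod on 45. Their group means spanned 1.44 log2 units for Apoe, 2.41 for Apoc1, 2.85 for Apoc2 and 4.08 for Apod. These spans lie at the 86.1st, 96.9th, 98.2nd and 99.5th percentile of the spans of the genes tested. The upper end of the Apoc2 span is day 1 LG268, the value known when the gene was chosen. Its percentile is therefore a description and no evidence. The highest group was day 4 LG268 for Apoe and Apod, day 1 LG268 for Apoc2 and day 4 Rosi for Apoc1.

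**Figure D1:**
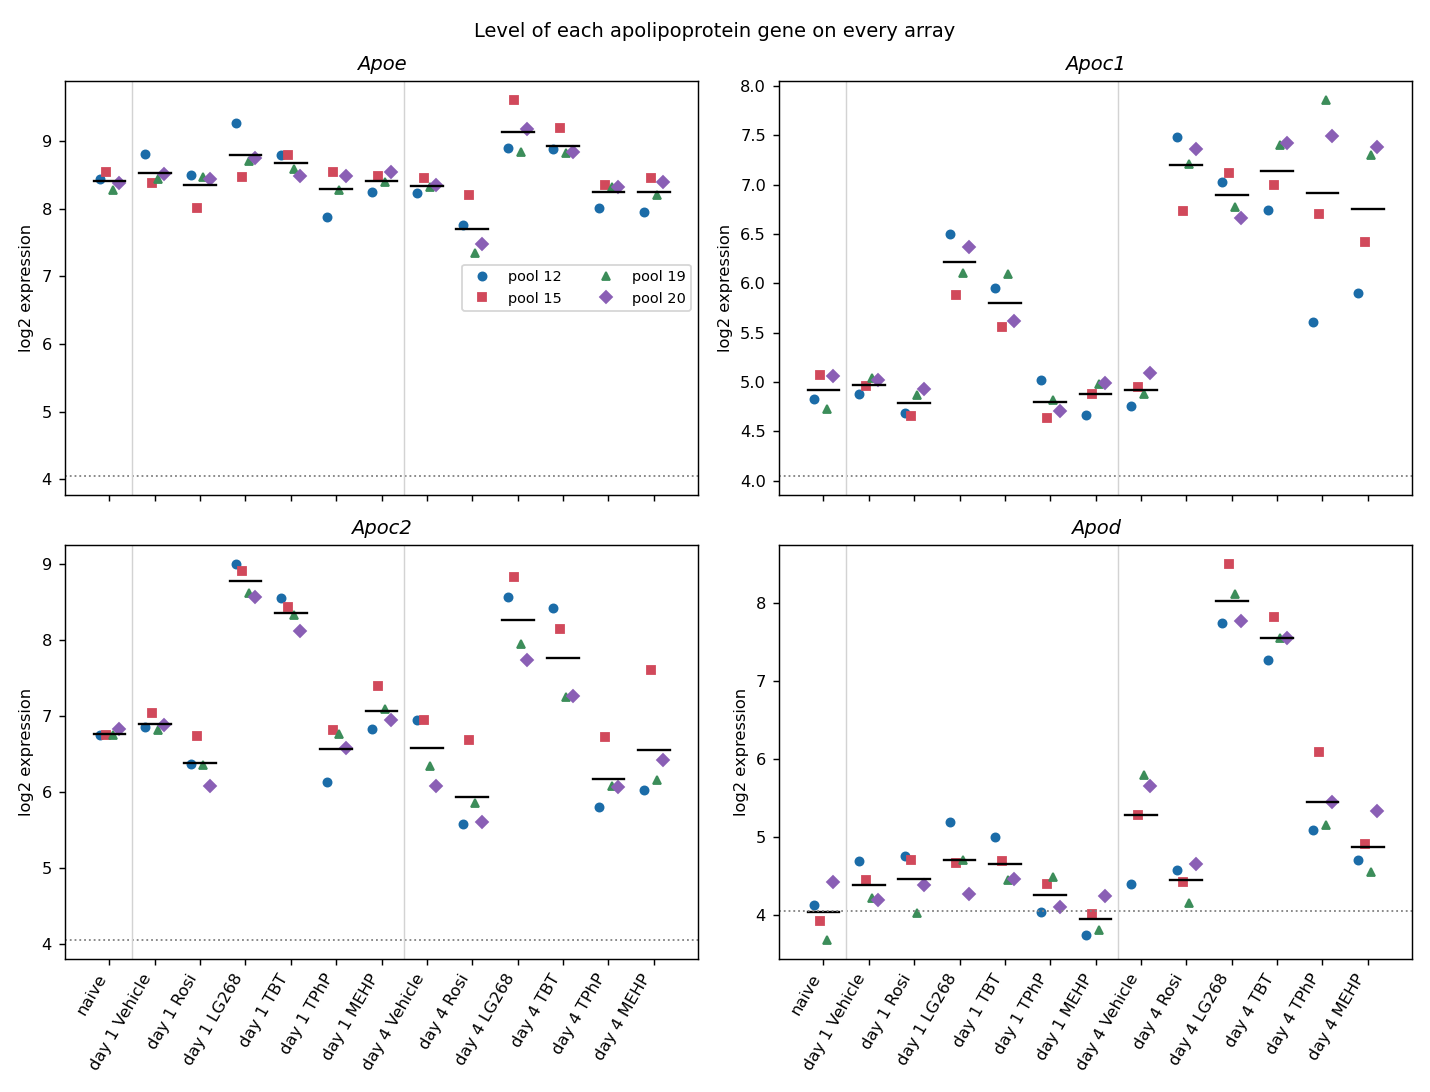
Log2 expression of Apoe, Apoc1, Apoc2 and Apod (vertical axes, each with its own range) on all 52 arrays, by group (horizontal axis). Points are arrays, shaped and coloured by pool, bars are group means and the dotted line is the table median of 4.05. Apoc1 is high in the 5 chemical groups of day 4, Apoc2 with LG268 and TBT on both days, and Apod with LG268 and TBT on day 4.

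The medium and vehicle alone asks what the culture conditions did without a chemical. Apod was the 1 of the 4 genes to change: it rose by day 4. In the order of pools 12, 15, 19 and 20, which is kept throughout, the naive arrays read 4.13, 3.92, 3.67 and 4.42 for Apod. Day 1 vehicle read 4.69, 4.44, 4.21 and 4.19, and day 4 vehicle 4.39, 5.28, 5.79 and 5.64. Pools 15, 19 and 20 stood clearly above both earlier groups on day 4, whereas pool 12 lay within their range, so the groups overlapped. Day 4 vehicle exceeded naive by 1.24 ± 0.23 (limma adjusted p = 8.35e-05, higher in 4 of 4 pools), in a comparison in which 17.4% of all genes tested rose and 11.5% fell. It exceeded day 1 vehicle by 0.89 ± 0.23 (adjusted p = 0.00818, higher in 3 of 4 pools), where 4.6% rose and 8.29% fell. This call ended without pool 19 or 20 (adjusted p = 0.16 and 0.126) and with the arrays of these groups fitted alone (adjusted p = 0.108). Of 21 stromal progenitor markers 10 rose and 4 fell between naive and day 4 vehicle. Their mean log2 level was 8.14, 7.89, 7.50 and 7.72 on naive and 7.85, 8.27, 8.57 and 8.63 on day 4 vehicle arrays. It thus stood higher on day 4, as Apod did, in pools 15, 19 and 20. In pool 12 it stood lower, while Apod went from 4.13 to 4.39. The part of a changing cell mixture in the rise of Apod was not tested. In these bulk samples fewer cells of a type and less RNA per cell cannot be told apart.

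Apoe, Apoc1 and Apoc2 did not pass the test in any of the 3 comparisons of vehicle and naive cells; on day 1 against naive 12.9% of all genes rose and 4.86% fell. Apoe differed by 0.12 ± 0.16 on day 1 and by -0.07 ± 0.16 on day 4 from naive. Apoc1 moved by at most 0.05 in size, and Apoc2 by 0.13 ± 0.27 on day 1 and -0.19 ± 0.27 on day 4. The intervals for Apoe on day 4 (-0.40 to 0.26) and for Apoc2 (-0.75 to 0.36) leave room for modest changes.

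Apoe, the ligand for remnant uptake, rose with LG268 and TBT and fell with Rosi, all on day 4. Day 4 vehicle arrays read 8.23, 8.45, 8.33 and 8.36, a narrow range. LG268 arrays read 8.91, 9.61, 8.84 and 9.19, and TBT arrays 8.89, 9.20, 8.83 and 8.84. Every LG268 and TBT array lay above every vehicle array. The difference was 0.79 ± 0.16 with LG268 (limma adjusted p = 0.00137, higher in 4 of 4 pools), or 1.73-fold, where 4.21% of all genes rose and 2.26% fell. It was 0.59 ± 0.16 with TBT (adjusted p = 0.00765, 4 of 4 pools), or 1.51-fold, where 10.6% rose and 9.42% fell. The TBT call ended without pool 19 (adjusted p = 0.0504) or 20 (0.0638).

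With Rosi on day 4 Apoe read 7.76, 8.21, 7.35 and 7.48, all below the lowest vehicle array, with pool 15 closest to it. The fall was -0.65 ± 0.16 (limma adjusted p = 0.000956, lower in 4 of 4 pools), a 1.56-fold decrease, in a comparison in which 27.7% of all genes fell and 21.3% rose. Macrophage markers moved the same way. Of 23 tested, 21 fell with Rosi on day 4 and none rose, with a median of -1.14 against -0.05 for all genes; examples are the lysozyme gene Lyz2 (-1.02 ± 0.11, adjusted p = 1.65e-10), the integrin Itgam (-1.52 ± 0.21, adjusted p = 4.41e-08) and the complement gene C1qc (-1.14 ± 0.17, adjusted p = 2.07e-07). Their mean log2 level was 8.56, 9.53, 8.20 and 8.15 on the Rosi arrays and 9.57 to 9.97 on vehicle arrays. Pool 15, in which the markers were nearest to vehicle, was also the pool in which Apoe fell least (-0.24, against -0.47 to -0.98 in the others). The part of macrophage RNA in the fall of Apoe was not tested.

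With LG268 and TBT the macrophage marker mean stayed within or close to the vehicle range on day 4, at 9.73 to 10.0 and 9.49 to 9.91. With LG268 3 of 23 markers rose and none fell, and with TBT 3 rose and 1 fell. In these comparisons 4.21% of all genes rose and 2.26% fell with LG268, and 10.6% rose and 9.42% fell with TBT. The TBT counts thus show nothing particular to these markers. Neutrophil markers fell on day 4, 10 of 15 with LG268 and 5 with TBT, and none rose; their mean was 5.59 to 6.80 and 6.19 to 7.42, against 7.05 to 8.73 with vehicle. Their part in the values of the 4 genes was not tested. TPhP and MEHP left Apoe within 0.09 of vehicle on day 4 (adjusted p = 0.764 and 0.759), each with an interval of -0.42 to 0.24. Their macrophage marker means were 9.12 to 9.79 with TPhP and 9.23 to 9.90 with MEHP, against 9.57 to 9.97 with vehicle. In every pool both lay below the vehicle array of that pool, while Apoe differed little. How Apoe and these markers relate was not tested. On day 1 no chemical changed Apoe past the threshold. LG268 gave 0.26 ± 0.16 on day 1, with 4 of 4 pools higher, and arrays at 9.27, 8.47, 8.71 and 8.75 that overlapped vehicle at 8.82, 8.39, 8.44 and 8.51. In the order of its 13 group means, only the lowest group, day 4 Rosi, was separated from its neighbour by more than their pooled SD.

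**Figure D2:**
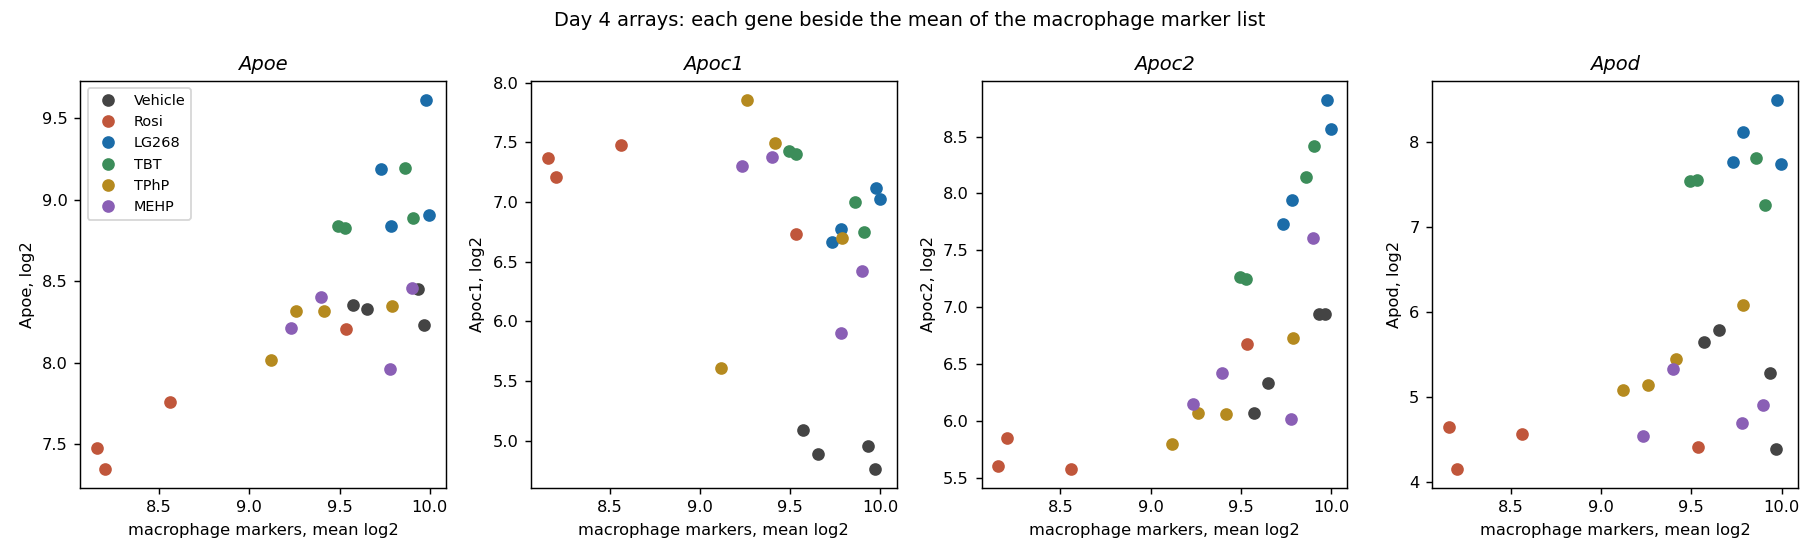
Log2 expression of each of the 4 genes (vertical axes) against the mean log2 level of the macrophage markers tested (horizontal axes) on the 24 arrays of day 4, coloured by group. The Rosi arrays of pools 12, 19 and 20 have the lowest marker means, 8.15 to 8.56, and that of pool 15 (9.53) lies among other groups. On the Rosi arrays Apoe is 7.35 to 8.21, whereas Apoc1 is high at 6.73 to 7.48.

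Apoc1, which restrains lipases and particle uptake, rose with all 5 chemicals on day 4. Day 4 vehicle read 4.76, 4.95, 4.88 and 5.09. Rosi arrays read 7.48, 6.73, 7.21 and 7.37, LG268 arrays 7.03, 7.12, 6.78 and 6.66, and TBT arrays 6.75, 7.00, 7.40 and 7.43. TPhP arrays read 5.61, 6.70, 7.86 and 7.49, and MEHP arrays 5.90, 6.42, 7.30 and 7.38. No array of any of these groups overlapped vehicle, and TPhP and MEHP were far more spread, with pool 12 lowest in both.

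The rise over vehicle was 2.28 ± 0.27 with Rosi (limma adjusted p = 2.1e-09), 4.85-fold. It was 1.98 ± 0.27 with LG268 (adjusted p = 2.02e-06) and 2.22 ± 0.27 with TBT (adjusted p = 4.95e-08). TPhP gave 2.00 ± 0.27 (adjusted p = 4.1e-07), where 11% of all genes rose and 7.94% fell, and MEHP 1.83 ± 0.27 (adjusted p = 1.56e-06), where 12.1% rose and 11.7% fell. All 4 pools rose in each comparison, by 0.85 (pool 12) to 2.98 (pool 19) with TPhP and by 1.14 (pool 12) to 2.42 (pool 19) with MEHP. Among the 14911 genes tested Apoc1 ranked 19th from the highest difference with LG268, 61st with TBT, 96th with TPhP, 119th with MEHP and 198th with Rosi on day 4.

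Adipocyte markers moved with Apoc1 on day 4. Of 23 tested, 23 rose with Rosi, 14 with LG268, 21 with TBT, 23 with TPhP and 23 with MEHP, and none fell. In the same order 21.3%, 4.21%, 10.6%, 11% and 12.1% of all genes rose. Their mean log2 level was 6.41 to 7.77 on vehicle arrays, 10.2 to 10.7 with Rosi, 7.96 to 8.68 with LG268, 8.97 to 9.85 with TBT, 9.40 to 10.4 with TPhP and 9.31 to 10.4 with MEHP. With TPhP and MEHP pool 12 was the lowest pool for these markers as well as for Apoc1. The 2 did not keep the same order between chemicals: LG268 had the lowest marker mean of the 5, while its Apoc1 mean, 6.90 ± 0.21 (SD, n = 4), was within the spread of TPhP at 6.92 ± 1.00 and of MEHP at 6.75 ± 0.71. On day 1 the marker mean was 6.49 with vehicle, 8.74 with Rosi, 7.34 with LG268, 7.27 with TBT, 7.43 with TPhP and 7.59 with MEHP. In the same order the Apoc1 mean was 4.97, 4.78, 6.21, 5.80, 4.79 and 4.88. With Rosi on day 1 the markers were thus higher than with vehicle, while Apoc1 was not. The part of fat cell formation in the rise of Apoc1 was not tested.

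On day 1 Apoc1 rose with LG268 alone by the test. Day 1 vehicle read 4.88, 4.96, 5.04 and 5.02 and LG268 6.5, 5.88, 6.11 and 6.36. TBT read 5.95, 5.55, 6.09 and 5.61. Neither group overlapped vehicle. The difference was 1.24 ± 0.27 with LG268 (limma adjusted p = 0.0232, 4 of 4 pools), where 0.228% of all genes rose and 0.0134% fell. With the pools as a block 68 genes instead of 36 passed in that comparison. The call ended without pool 15, 19 or 20 (adjusted p = 0.21, 0.174 and 0.511). TBT gave 0.83 ± 0.27 (adjusted p = 0.244, 4 of 4 pools), and passed with the arrays of these groups fitted alone (adjusted p = 0.0142); 0.496% of all genes rose with TBT on day 1 and 0.0469% fell, and with the pools as a block 171 genes instead of 81 passed. Rosi, TPhP and MEHP gave -0.19, -0.18 and -0.09 ± 0.27 on day 1, none of which passed; with MEHP 0.362% of all genes rose and 0.161% fell that day.

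Apoc1 thus had few levels between its extremes. The 5 chemical groups of day 4 headed the order of group means, at 6.75 to 7.20, and none of them differed from its neighbour by more than their pooled SD, day 1 LG268 below them included. Day 1 LG268 (6.21 ± 0.27) and day 1 TBT (5.80 ± 0.26) followed, each separated from the next lower group by more than that. The remaining 6 groups lay at 4.79 to 4.97, and no neighbours among them were separated.

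**Figure D3:**
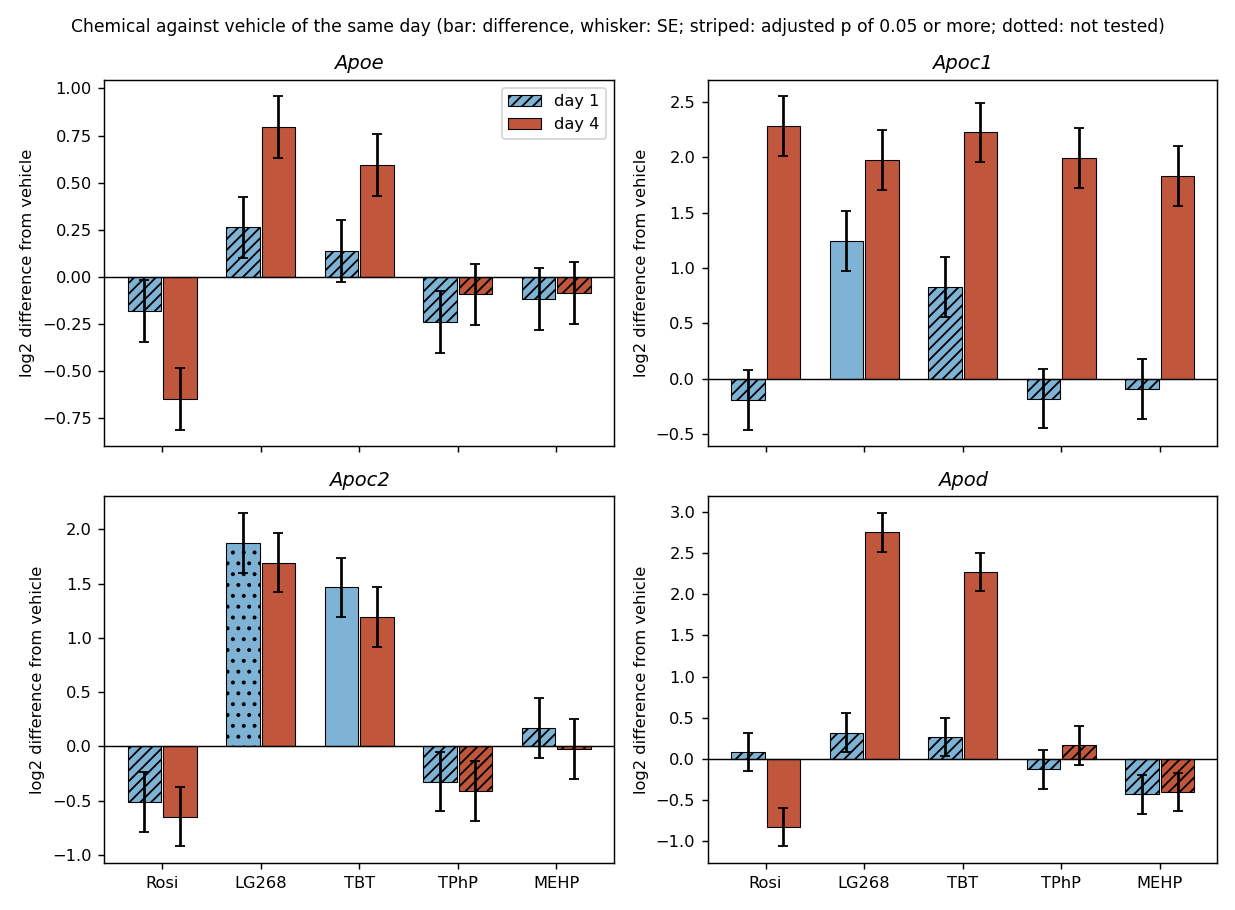
Log2 difference from vehicle of the same day (vertical axes) for each gene and chemical (horizontal axes), on day 1 and day 4; bars start at 0, whiskers are limma's standard error, and striped bars did not pass the adjusted p threshold of 0.05; the dotted bar, Apoc2 with LG268 on day 1, chose the gene and was not tested. For Apoc1 all 5 day 4 bars lie between 1.83 and 2.28; for Apoc2 the LG268 and TBT bars reach 1.69 and 1.19 on day 4; for Apod they reach 2.75 and 2.27 on day 4.

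Apoc2, the cofactor of lipoprotein lipase, was higher with LG268 and TBT on both days. On day 1 vehicle read 6.85, 7.04, 6.82 and 6.88, LG268 9.0, 8.91, 8.61 and 8.56, and TBT 8.56, 8.44, 8.33 and 8.12. The lowest LG268 array (8.564) lay only just above the highest TBT array (8.555), and both groups were far above vehicle. LG268 stood 1.88 ± 0.27 above vehicle on day 1, 3.67-fold, which is the value known when the gene was chosen and the 8th highest of the 14911 genes tested. TBT stood 1.47 ± 0.27 above it (limma adjusted p = 0.00145, 4 of 4 pools), 2.76-fold and 15th highest. Every Apoc2 test on the 4 day 1 vehicle arrays, with TBT, Rosi or another group, shares them with the value known at the choice. The p-values of those tests are thus not independent of it. This TBT call ended without pool 19 (adjusted p = 0.099).

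On day 4 vehicle read 6.94, 6.94, 6.34 and 6.07 for Apoc2, LG268 8.57, 8.83, 7.95 and 7.73, and TBT 8.42, 8.14, 7.25 and 7.26. In all 3 groups pools 12 and 15 were higher than pools 19 and 20, and the treated groups did not overlap vehicle. The rise was 1.69 ± 0.27 with LG268 (limma adjusted p = 4.18e-05) and 1.19 ± 0.27 with TBT (adjusted p = 0.00141), with 4 of 4 pools higher in both. Within pools the LG268 difference ran from 1.61 to 1.88, and that of TBT from 0.91 to 1.48.

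Rosi lowered Apoc2 on day 4 at the edge of the threshold. Its arrays read 5.58, 6.68, 5.85 and 5.60, with pool 15 inside the vehicle range. The fall was -0.65 ± 0.27 (limma adjusted p = 0.0467, lower in 4 of 4 pools), and pool 12 gave the largest part of it (-1.37, against -0.26 to -0.49). Without pool 12 the difference was -0.41 (adjusted p = 0.309), and the call also ended without pool 19 (0.115) or 20 (0.0924). It ended too with the 8 arrays fitted alone (0.115), after loess normalisation (0.0548) and with no filter on low values (0.0638). The macrophage markers given above for Apoe fell in the same arrays, and their part was not tested here either. On day 1 Rosi arrays read 6.36, 6.74, 6.35 and 6.07, all below vehicle; the difference of -0.51 ± 0.27 did not pass (adjusted p = 0.333), where 4.16% of all genes rose and 3.08% fell, but did with the 8 arrays fitted alone (0.0357).

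TPhP and MEHP did not change Apoc2 past the threshold. TPhP gave -0.33 ± 0.27 on day 1, with arrays at 6.12 to 6.81, all below the lowest vehicle array and pool 12 farthest, in a comparison in which 0.0335% of all genes fell and 0.181% rose. On day 4 TPhP gave -0.41 ± 0.27 (interval -0.96 to 0.14, lower in 4 of 4 pools). MEHP gave 0.17 ± 0.27 on day 1 and -0.02 ± 0.27 on day 4, where pools 15 and 20 were higher and pools 12 and 19 lower. Apoc2 differed more between pools than the other 3 genes: over the 13 groups pool 15 stood 0.38 above the gene's mean and pool 20 stood 0.22 below it.

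**Figure D4:**
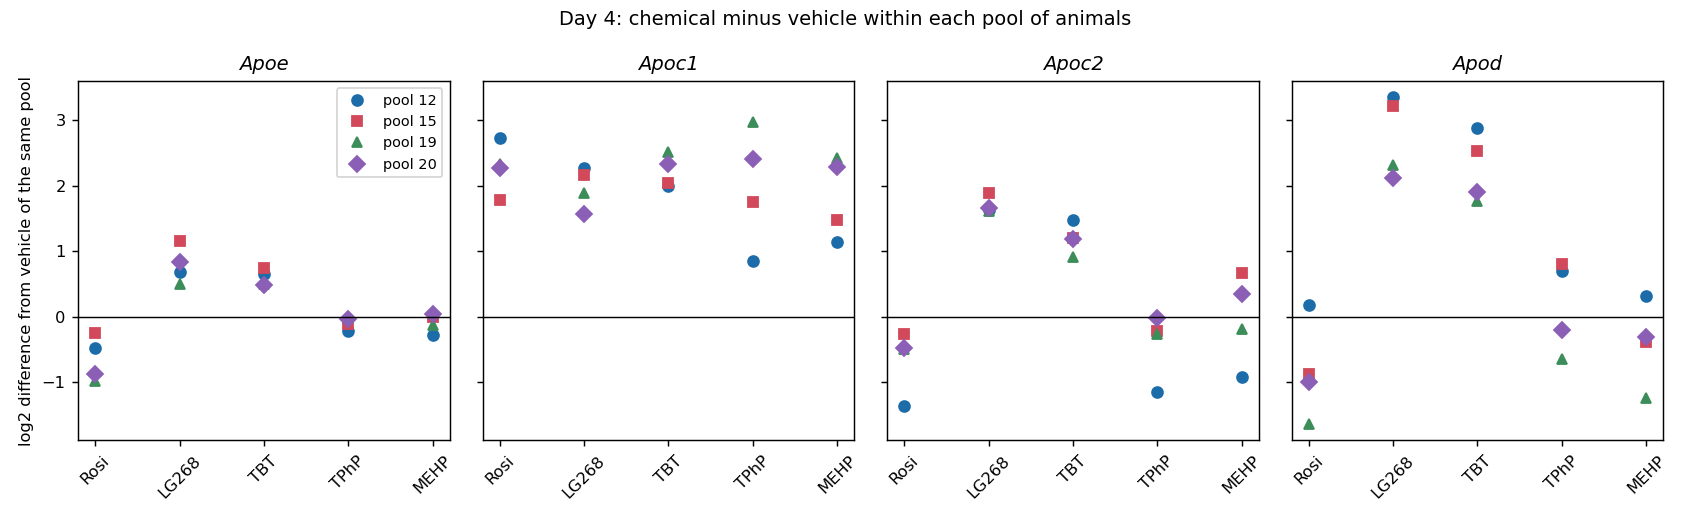
Log2 difference from vehicle of the same pool on day 4 (vertical axis), for the 4 genes (panels) and 5 chemicals (horizontal axes); each point is 1 pool. All 4 points lie above 0 for Apoc1 with every chemical, and for Apoe, Apoc2 and Apod with LG268 and TBT; for Apod with TPhP and MEHP pools lie on both sides of 0.

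Apod, the lipocalin, showed the widest range of the 4 genes and rose with LG268 and TBT on day 4. LG268 arrays read 7.74, 8.50, 8.11 and 7.76 and TBT arrays 7.26, 7.81, 7.55 and 7.54, against 4.39, 5.28, 5.79 and 5.64 with vehicle. All treated arrays lay more than 1 log2 unit above the highest vehicle array. The difference was 2.75 ± 0.23 with LG268 (limma adjusted p = 2.58e-11), 6.73-fold, the 6th highest of all genes tested. It was 2.27 ± 0.23 with TBT (adjusted p = 1.23e-09), 4.82-fold and 58th highest. In both comparisons 4 of 4 pools were higher. Of 21 stromal progenitor markers 5 rose and 1 fell with LG268, where 4.21% of all genes rose and 2.26% fell. With TBT 5 rose and 5 fell, where 10.6% rose and 9.42% fell. Their mean was 8.58 to 8.65 with LG268 and 8.32 to 8.49 with TBT, against 7.85 to 8.63 with vehicle. In pools 19 and 20 the TBT arrays lay below vehicle. Their part in the rise of Apod was not tested.

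Rosi arrays read 4.57, 4.42, 4.15 and 4.65 for Apod on day 4, close to day 1 levels. Pools 15, 19 and 20 were far below their vehicle arrays and pool 12 slightly above, so the groups overlapped. The fall was -0.83 ± 0.23 (limma adjusted p = 0.00289, lower in 3 of 4 pools); the call ended without pool 19 (adjusted p = 0.106). Stromal progenitor markers fell in the same comparison, 12 of 21 with 2 rising and a median of -0.72, where 27.7% of all genes fell and 21.3% rose. The marker mean was 7.58 to 7.97 on Rosi arrays. The part of stromal RNA in the lower Apod was not tested.

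TPhP left Apod at 5.09, 6.08, 5.15 and 5.45 on day 4, 0.16 ± 0.23 from vehicle (limma adjusted p = 0.698). MEHP arrays read 4.70, 4.90, 4.55 and 5.33, a difference of -0.41 ± 0.23 (adjusted p = 0.227) that passed without pool 12 (-0.65, adjusted p = 0.0345). Both groups overlapped vehicle. On day 1 no chemical changed Apod past the threshold. LG268 gave 0.32 ± 0.23 and TBT 0.26 ± 0.23, each with 4 of 4 pools higher and with arrays overlapping vehicle, and MEHP gave -0.43 ± 0.23.

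The comparison of day 4 with day 1 asks when each response arose. The change in a chemical's effect between the days was tested directly, as the day 4 difference from vehicle minus that of day 1. For Apoc1 this passed with 4 of the 5 chemicals: Rosi (2.47 ± 0.38, limma adjusted p = 3.91e-06), TPhP (2.17 ± 0.38, adjusted p = 0.00038), MEHP (1.92 ± 0.38, adjusted p = 0.0014) and TBT (1.39 ± 0.38, adjusted p = 0.0454). It did not with LG268 (0.73 ± 0.38, adjusted p = 0.827), which had already raised Apoc1 on day 1. All 4 pools moved the same way in each. The share of all genes passing this test was 30% for Rosi, 4.49% for TPhP, 6.36% for MEHP, 1.77% for TBT and 0.0805% for LG268. The TBT call on Apoc1 ended without pool 15, 19 or 20 (adjusted p = 0.187, 0.276 and 0.398), after loess normalisation (0.055) and with no filter on low values (0.0607), and the MEHP call without pool 19 or 20 (0.059 and 0.0748).

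For Apod the effect grew with LG268 (2.43 ± 0.33, limma adjusted p = 3.5e-05) and TBT (2.00 ± 0.33, adjusted p = 0.00039), in 4 of 4 pools. With Rosi it turned lower (-0.91 ± 0.33, adjusted p = 0.0332, 3 of 4 pools), a call that ended without pool 15, 19 or 20 (0.125, 0.206 and 0.16). That call ended too with the arrays of these groups fitted alone (0.0791). For Apoe no change between the days passed: its effect changed by 0.53 ± 0.23 with LG268 and 0.46 ± 0.23 with TBT, with 4 of 4 pools higher. With Rosi the Apoe effect changed by -0.47 ± 0.23, which ranged from -0.66 to -0.28 on leaving out 1 pool and passed without pool 15 (-0.66, adjusted p = 0.0175). For Apoc2 no change passed with Rosi, TBT, TPhP or MEHP, and that with TBT was -0.27 ± 0.39 (95% interval -1.05 to 0.51). With LG268 the Apoc2 value was 1.88 on day 1 and 1.69 on day 4, and this change was not tested.

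**Figure D5:**
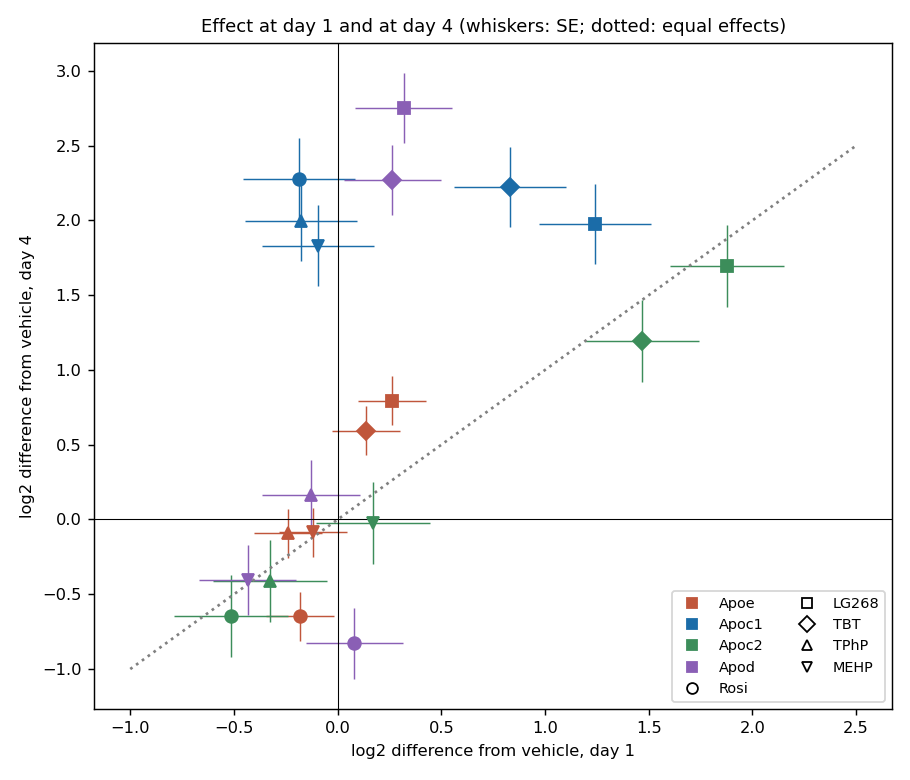
Log2 difference from vehicle on day 4 (vertical axis) against that on day 1 (horizontal axis); colours are genes, shapes are chemicals, whiskers are limma's standard error and the dotted line marks equal effects. Apoc2 with LG268 (1.88 and 1.69) and TBT lies near the line, Apoc1 with Rosi, TPhP and MEHP near 0 on day 1 and at 1.83 to 2.28 on day 4, and Apod with LG268 at 0.32 and 2.75.

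Within a chemical Apod rose from day 1 to day 4 by 3.33 ± 0.23 with LG268 (limma adjusted p = 1.12e-13), where 19.2% of all genes passed, and by 2.90 ± 0.23 with TBT (adjusted p = 4.61e-12), where 29% did. It also rose with TPhP (1.19 ± 0.23, adjusted p = 9.74e-05, background 32.2%) and MEHP (0.92 ± 0.23, adjusted p = 0.0018, background 33.7%), as it did with vehicle. With Rosi it stood at -0.01 ± 0.23. Apoc1 rose over the same days with Rosi, TBT, TPhP and MEHP by 1.34 to 2.41. With LG268 it stood 0.68 ± 0.27 higher on day 4, which did not pass (adjusted p = 0.0697), but did with the pools as a block (0.0438), with the compared arrays alone (0.00914) and without pool 12 (0.0177). Apoe fell with Rosi by 0.66 ± 0.16 (adjusted p = 0.000833), where 46.4% of genes passed; without pool 19 that p was 0.056. For Apoe the LG268 value was 0.34 ± 0.16 (adjusted p = 0.154), and it passed without pool 12 (0.57, adjusted p = 0.0137). Apoc2 did not pass with Rosi, TBT, TPhP or MEHP; in TBT cultures it stood at -0.59 ± 0.27 (adjusted p = 0.102, and 0.0275 with the pools as a block). Without pool 15 the Apoc2 value passed with Rosi (-0.59, adjusted p = 0.0428), TBT (-0.69, adjusted p = 0.0311) and MEHP (-0.76, adjusted p = 0.0136).

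Chemicals were also compared with each other, 10 pairs on each day. LG268 and TBT, at 100 and 80 nM, did not differ past the threshold for Apoe, Apoc1 or Apod on either day or for Apoc2 on day 4. On day 1 0% of all genes passed in this pair by limma (276 at an unadjusted p under 0.05, and 1 adjusted with the pools as a block). The difference on day 1 of LG268 over TBT was 0.41 for Apoc1 (95% interval -0.13 to 0.96), 0.13 for Apoe (-0.20 to 0.46) and 0.05 for Apod (-0.42 to 0.53); for Apoc2 it was 0.41, not tested because of the choice of the gene. On day 4, where 3.35% of genes passed, it was 0.48 for Apod (0.01 to 0.96, adjusted p = 0.341), 0.50 for Apoc2 (-0.05 to 1.05), 0.20 for Apoe (-0.13 to 0.53) and -0.25 for Apoc1 (-0.79 to 0.30). The interval for Apoc2 on day 4 thus reaches 1.05 log2 units.

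Rosi against LG268 gave the widest gaps on day 4, where 47.8% of all genes passed. Rosi stood below LG268 by -3.58 ± 0.23 for Apod (limma adjusted p = 1.15e-15), -2.34 ± 0.27 for Apoc2 (adjusted p = 1.61e-09) and -1.44 ± 0.16 for Apoe (adjusted p = 8.48e-10). For Apoc1 the pair did not differ past the threshold (0.30 ± 0.27, adjusted p = 0.382). Rosi against TBT showed the same division, with -3.10 ± 0.23 for Apod, -1.84 ± 0.27 for Apoc2, -1.24 ± 0.16 for Apoe and 0.06 ± 0.27 for Apoc1, where 38.1% of genes passed. On day 1 Rosi already stood below LG268 for Apoc1 (-1.43 ± 0.27, limma adjusted p = 0.000314), where 6.99% passed. For Apoc2 the gap was -2.39 ± 0.27, given without a test because it rests on the LG268 arrays by which the gene was chosen. TPhP and MEHP, whose doses are not given, did not differ past the threshold for any of the 4 genes on either day, where 0% and 0.0134% of genes passed by limma (for day 1, 245 at an unadjusted p under 0.05, and 3 adjusted with the pools as a block); on day 4 the interval for Apod was 0.10 to 1.04. Over the 20 pairs 8 passed for Apoe, 4 for Apoc1 and 7 for Apod, and 8 passed for Apoc2 over the 16 pairs without day 1 LG268. For Apoc1 the 4 were all on day 1. The share of all genes passing on day 1 was 2.61% for Rosi against TBT, 2.32% and 1.88% for Rosi against TPhP and MEHP, 0.342% and 0.228% for LG268 against TPhP and MEHP, and 0.0537% and 0.0335% for TBT against them. On day 4 it was 28.2% and 26.1% for Rosi, 18.3% and 21.1% for LG268 and 2.31% and 1.97% for TBT against TPhP and MEHP.

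Other genes of the pathway were described from lists, with the number that passed and the median difference. Of 18 tested LXR receptor and target genes, 8 rose with LG268 and 9 with TBT on day 1 and none fell, with medians of 0.65 and 0.68 against -0.01 for all genes in both. The cholesterol exporters led: Abca1 rose by 2.11 ± 0.16 with LG268 (limma adjusted p = 2.62e-12) and by 1.89 ± 0.16 with TBT (adjusted p = 4.55e-11), and Abcg1 by 2.09 ± 0.24 (adjusted p = 1.77e-07) and 1.88 ± 0.24 (adjusted p = 1.54e-06). On day 1 Rosi raised 6 of the 18, MEHP 2 and TPhP 1. The shares of all genes that rose that day were 0.228% with LG268, 0.496% with TBT, 4.16% with Rosi, 0.362% with MEHP and 0.181% with TPhP. On day 4 12 of 18 rose with LG268 and with TBT and none fell, and Abca1 stood 2.18 ± 0.16 and 1.80 ± 0.16 above vehicle. Rosi on day 4 raised 8 and lowered 6 of them, with the lipogenic genes Srebf1 (2.27 ± 0.19, adjusted p = 5.94e-13) and Fasn (3.14 ± 0.27, adjusted p = 7.09e-13) among those that rose. TPhP raised 8 and lowered 1, and MEHP raised 7. The shares of all genes that rose on day 4 were 4.21% with LG268, 10.6% with TBT, 21.3% with Rosi, 11% with TPhP and 12.1% with MEHP. With Rosi 27.7% of all genes fell and with TPhP 7.94%, so that the counts lowered show nothing particular to the list.

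A further list held 22 genes named after apolipoproteins, of which some code for other proteins, such as the receptor gene Apobr and the editing enzyme gene Apobec1. None of the 15 tested passed with any chemical on day 1, where at most 4.16% of all genes rose and 3.08% fell. On day 4 6 rose and 2 fell with Rosi, 1 rose with LG268, 2 with TBT, 3 with TPhP and 3 with MEHP. Of all genes 21.3%, 10.6%, 11% and 12.1% rose with Rosi, TBT, TPhP and MEHP. In the same order 27.7%, 9.42%, 7.94% and 11.7% fell. The counts of the list were not tested against these shares. Apoc3, which slows particle clearance, rose by 1.29 ± 0.17 with Rosi (limma adjusted p = 3.3e-08), 0.70 with TBT, 0.67 with TPhP and 0.71 with MEHP. The mitochondrial cristae gene Apool rose by 1.12 with Rosi, and clusterin (Clu), also called apolipoprotein J, fell by 1.13 with it (adjusted p = 8.95e-05). Apobec1, the editing enzyme of Apob messenger RNA, was the listed gene that rose with LG268 (0.64, adjusted p = 0.036), where 4.21% of all genes rose.

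Genes flanking the Apoe cluster on chromosome 7 moved little with LG268 and TBT. Of 16 tested, none passed on day 1 with either, where 0.228% of all genes rose with LG268 and 0.496% with TBT. On day 4 Nectin2 (0.39) and Relb (0.30) rose with LG268, and with TBT Nectin2 rose by 0.36 and Nkpd1 fell by 0.47. Of all genes 4.21% rose and 2.26% fell with LG268, and 10.6% rose and 9.42% fell with TBT. With Rosi on day 4 5 of the 16 rose and 4 fell, where 21.3% of all genes rose and 27.7% fell. Medians of this list lay within 0.09 of 0 in all 10 comparisons with vehicle.

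Lipoprotein lipase (Lpl), the enzyme that apolipoprotein C-II activates, rose with every chemical on both days. Its rise on day 1 was 0.84 ± 0.10 with Rosi (limma adjusted p = 2.39e-08), 0.56 with LG268, 0.68 with TBT, 0.45 with TPhP and 0.43 with MEHP, and on day 4 1.10, 0.77, 1.03, 0.99 and 0.89. On day 4 Apoc2 thus rose with 2 of the 5 chemicals with which Lpl rose. Of 21 lipase and remodelling genes, which share Lpl, Abca1 and Abcg1 with the LXR list, 7 rose with Rosi, 5 each with LG268 and TBT and 2 each with TPhP and MEHP on day 1. In the same order 4.16%, 0.228%, 0.496%, 0.181% and 0.362% of all genes rose. Angptl4, an inhibitor of the lipase, rose on day 1 by 2.98 ± 0.18 with Rosi, 2.19 with LG268, 2.73 with TBT, 2.03 with TPhP and 2.22 with MEHP. Of 18 lipoprotein receptor genes 10 rose and none fell with LG268 on day 4, where 4.21% of all genes rose. Among the 10 were the scavenger receptor genes Stab2 (1.5 ± 0.26) and Scarb1 (0.58 ± 0.11). With Rosi on day 4 7 rose and 6 fell, where 21.3% of all genes rose and 27.7% fell. Cd36 stood 2.15 ± 0.16 above vehicle and Stab1 differed from it by -1.55 ± 0.20. The receptor counts were not tested against these shares.

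Of 10 lipocalin genes tested, relatives of Apod, the acute-phase carriers Orm1 and Orm2 rose on day 4 with Rosi by 4.62 ± 0.46 and 2.90 ± 0.40, with TPhP by 3.10 and 2.09, with MEHP by 3.48 and 1.89 and with TBT by 2.00 and 1.27. With LG268 none rose and Lcn2, a neutrophil granule lipocalin, fell by 1.16 ± 0.36 on day 4 and is 1 of the 10 neutrophil markers that fell with it. On day 4 21.3% of all genes rose with Rosi, 11% with TPhP, 12.1% with MEHP, 10.6% with TBT and 4.21% with LG268. With LG268 2.26% of all genes fell. None of the 10 lipocalin genes passed with any chemical on day 1, where at most 4.16% of all genes rose and 3.08% fell.

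The genes whose 13 group means followed each member most closely were found among 3833 tested genes with group means spanning at least 1 log2 unit. The points share pools, normalisation and vehicle arrays, and r is a description only. Apoe was followed by Iqgap2 (Pearson r = 0.963), Thsd4 (0.958) and the Apob-editing enzyme Apobec1 (0.950), then Syn1 and Trpm2. Apoc1 was followed by the sterol carrier gene Gramd1b (0.961), the lipogenic regulator Mid1ip1 (0.942), Mtm1 (0.937), Eepd1 (0.934) and the fatty acid synthase Fasn (0.924). Apoc2 was followed by Cyp4f18 (0.907), the retinoic acid hydroxylase Cyp26b1 (0.896), St3gal5, Acsl4 and Mylip (0.887), which degrades the LDL receptor. Apod was followed by cytoglobin (Cygb, 0.960), Moxd1 (0.946), Dnaaf3, Syna and Cldn11 (0.926). Between the members r over the 13 means was 0.852 for Apoe and Apoc2, 0.651 for Apoe and Apod, 0.612 for Apoc1 and Apod, 0.410 for Apoc2 and Apod, 0.171 for Apoc1 and Apoc2 and 0.0929 for Apoe and Apoc1. Apoc1 and Apoe, direct neighbours on the chromosome, were thus the pair with the lowest r.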

How the data were processed

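RNA of 52 cultures was read on 1-colour Affymetrix arrays (Mouse Gene 2.0 ST). The authors' deposited series table holds log2 expression values of 41345 probe sets; the submitters' processing notes name R 3.3.1 and the package oligo, and the normalisation method is not given in the sources used here. Array medians lay at 3.97 to 4.15. Of the probe sets, 23521 were annotated to 1 gene, 1814 to several and 16010 to none; the highest-mean probe set stood for each gene. No array duplicated another. Group means were fitted with limma 3.58.1 in R 4.3.3 (39 residual degrees of freedom) and compared in 43 contrasts. On simulated data for LG268 on day 1 with 14911 genes, 92% of changes of 1 log2 unit and 46% of 0.5 were recovered. The simulation had independent noise, no pool effect and 50 changed genes at each size of change. In the real comparison 36 genes passed, so recovery in the real data may be lower.

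Equal pool numbers mark RNA of the same pooled animals, per the labels, and 43 of 52 arrays deviated most like their own pool (median correlation 0.253); the pool as a block was an alternative. Others were the compared arrays alone, cyclic loess, mean of probe sets, the filter on low values, robust variance moderation and leaving out each pool. The 4 genes were named in every comparison, up to 4 members of each list by smallest adjusted p, and 5 genes most like each member. Some list members named for comparison across chemicals fall outside that rule. Members and lists were chosen with earlier results of these data known. The number of arrays limits the precision. Apoc1 promoter and protein sequences were not used here.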

Additional observations from a re-analysis of the deposited data

Results flagged for a closer look

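Apoc1 responded differently on the 2 days: its difference from vehicle was larger on day 4 than on day 1 by 2.47 with Rosi, 1.39 with TBT, 2.17 with TPhP and 1.92 with MEHP, by limma's test of the change itself. For Apod the same test gave 2.43 with LG268, 2.00 with TBT and -0.91 with Rosi.

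Single arrays stood far from the other 3 of their group by Dixon's test in 4 of 52 sets of a gene and group, and chance alone marks about 1 in 20. Pool 15 was low for Apoe in day 1 Rosi (8.01) and high in day 4 TBT (9.20). Pool 12 was low for Apoe in day 4 TPhP (8.01). Pool 20 was high for Apoc2 among the naive arrays (6.83).

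The probe set annotated to both Apoc4 and Apoc2, used in no comparison above, lay above all vehicle arrays of the same day in 5 groups. Its means were 5.07 with LG268 and 4.98 with TBT on day 1, against 4.40 with vehicle. On day 4 they were 5.84 with LG268, 5.38 with TBT and 4.99 with Rosi, against 4.49. With Rosi on day 4 this probe set was higher where the Apoc2 probe set was lower.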

How the results depend on the processing

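The number and pairing of arrays set most limits. Of 572 checks of the 4 genes in the 13 comparisons with vehicle or naive cells, 543 kept direction and side of the threshold. The checks of Apoc2 with LG268 on day 1, the value known at the choice, are among them and are no evidence. Apoc2 with Rosi on day 4 was lost with the compared arrays alone (-0.65, adjusted p = 0.115), after cyclic loess (-0.61) and with no filter on low values (-0.65). With the compared arrays alone, Apod in vehicle from day 1 to day 4 was lost (0.89), and Apoc2 with Rosi (-0.51) and Apoc1 with TBT (0.83) on day 1 were gained. Values near 0 turned sign after loess: Apoc1 in day 4 vehicle against naive (0.00881), Apod in Rosi cultures (0.00223) and Apoe in TPhP cultures (0.00981) between the days; the cause was not tested. No setting reversed a called difference. The mean of probe sets and robust moderation changed no call.

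The pools as a replicate block changed no call against vehicle or naive cells and made 4 elsewhere, of which those of Apoc1 (0.68) and Apoc2 (-0.59) stand above; the other two were Apoc2 with TBT against MEHP on day 1 (1.3, adjusted p = 0.00107) and Rosi against MEHP on day 4 (-0.62, adjusted p = 0.0222). Counts of all genes passing rose with the block for LG268 (36 to 68), TBT (81 to 171), TPhP (32 to 71) and MEHP (78 to 176) on day 1 and LG268 on day 4 (965 to 1590). With the compared arrays alone they were 2093 (4308) for day 4 vehicle against naive, 568 (1922) for day 4 against day 1 vehicle, 174 and 190 for TBT and MEHP on day 1, and 369, 1676, 816 and 1048 for LG268, TBT, TPhP and MEHP on day 4.

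Leaving out 1 pool at a time gave 869 to 2876 genes for day 1 vehicle against naive, 2427 to 4862 for day 4 against naive and 794 to 1560 between the vehicle days. On day 1 it gave 427 to 1016 for Rosi, 13 to 38 for LG268, 33 to 117 for TBT, 8 to 63 for TPhP and 10 to 112 for MEHP. On day 4 it gave 366 to 1011 for LG268, 1314 to 3044 for TBT, 1090 to 3394 for TPhP and 1500 to 3987 for MEHP. Called differences ranged from 1.11 to 1.35 for Apoc1 with LG268 and 1.39 to 1.54 for Apoc2 with TBT on day 1. On day 4 they were -0.77 to -0.41 for Apoc2 and -1.17 to -0.56 for Apod with Rosi, 0.54 to 0.63 for Apoe with TBT, and 0.67 to 1.29 for Apod between the vehicle days. The uncalled Apod value with MEHP on day 4 ranged from -0.65 to -0.13. Uncalled ones crossed 0: Apoc1 in vehicle against naive on day 1 (-0.034 to 0.10) and day 4 (-0.051 to 0.040), Apod with TPhP on day 1 (-0.26 to 0.046) and day 4 (-0.047 to 0.43), Apoe with MEHP on day 1 (-0.19 to 0.033) and Apoc2 with MEHP on day 4 (-0.25 to 0.28). So did changes of effect between days, for Apoc2 with Rosi (-0.29 to 0.11), TPhP (-0.21 to 0.027) and MEHP (-0.36 to 0.042), Apoe with TPhP (-0.041 to 0.29) and MEHP (-0.057 to 0.075) and Apod with TPhP (-0.059 to 0.70) and MEHP (-0.38 to 0.32), and the day 4 to day 1 values of Apod in Rosi (-0.11 to 0.076) and Apoe in TPhP cultures (-0.10 to 0.00421). Between chemicals on day 1 they were Rosi against TPhP for Apoe (-0.12 to 0.26) and Apoc1 (-0.088 to 0.097), Rosi against MEHP for Apoe (-0.17 to 0.073) and LG268 against TBT for Apod (-0.012 to 0.14). On day 4 they were, for Apoc1, Rosi against TBT (-0.17 to 0.16), Rosi against TPhP (-0.25 to 0.59), LG268 against TPhP (-0.50 to 0.34), LG268 against MEHP (-0.18 to 0.43) and TBT against TPhP (-0.076 to 0.46), and TPhP against MEHP for Apoe (-0.045 to 0.026). Of the called chemical pairs, Apoc1 for Rosi against TBT and LG268 against TPhP or MEHP on day 1 was lost without pool 15, 19 or 20, and Apoe for Rosi or TBT against TPhP or MEHP on day 4 without pool 19 or 20. Apoc2 for TBT against MEHP on day 4 was lost without pool 12 (0.82, adjusted p = 0.175), 19 (0.136) or 20 (0.0699). With the compared arrays alone it was lost too (adjusted p = 0.274), as were Apoc2 for TBT against TPhP (0.0759) and those 4 Apoe pairs (0.0604 to 0.139).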
